A study of Drosophila melanogaster with 312 samples.

Results

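The genes described here encode enzymes that digest food in the gut of Drosophila melanogaster, and were chosen by gene symbol. They are 16 Jonah proteases, 10 trypsins, the 8 maltases Mal-A1 to Mal-A8, the 3 amylase genes Amy-p, Amy-d and Amyrel, and the lipase genes mag and Lip3, 39 genes in all. All 39 were among the 17478 genes with raw read counts, and 37 had their symbol in the authors' table of normalized read counts, which lists 13212 genes. The other two, gammaTry and deltaTry, were followed in the raw counts.

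Whole bodies were sequenced as poly-A RNA from 6 outbred populations made from 1 intercross of inbred lines of the Drosophila Genetic Reference Panel. They were the 2 control populations, the 2 short-sleeper populations and the 2 long-sleeper populations, called Replicate 1 and Replicate 2 of each scheme. Parents of each new generation were the shortest or the longest night sleepers, or in the controls flies taken without regard to sleep. No genotype other than this shared ancestry and no drug separated the groups. Flies were virgin males or virgin females that had been kept in same-sex vials for 4 days before their sleep was recorded, and they were reared on standard food in constant conditions. Each population was sampled at generation 0, before selection, and at generations 2 to 13, with 2 pools of 10 flies for each sex and generation. This gave 26 libraries for each population and sex. Pools of a population share its history, and each scheme has only 2 populations.

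Digestive enzymes are made mostly by the enterocytes of the midgut and secreted into its lumen. Jonah proteases and trypsins are serine proteases that cut dietary protein, amylases cut starch to maltose and short sugars, maltases release glucose from these, and lipases free fatty acids from dietary fat. In flies the transcription of these genes is known to depend on feeding state and on the sugar in the food, among others through the Activin ligand Dawdle and the transcription factor Sugarbabe. Many of them lie in clusters of gene copies. In the BDGP6.54 annotation the 8 maltase genes lie together on chromosome arm 2R between positions 8449664 and 8473961, and the 10 trypsin genes between 11336840 and 11357537 of the same arm. Amy-p spans 17118636 to 17120303 and Amy-d spans 17124764 to 17126369, also on 2R, on opposite strands. The Jon65A genes span 6039155 to 6054443 of 3L, the Jon25B genes 4949941 to 4955144 of 2L, the Jon99C genes 29922216 to 29926189 of 3R and the Jon99F genes 30487016 to 30489895 of 3R. Overlap with a gene on the other strand was found for 7 of the genes, namely Jon44E, deltaTry, Mal-A1, Mal-A8, Amyrel, mag and Lip3, and the strand setting of the counting is not given in the sources used here.

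Depth was between 31539064 and 109389826 counts on genes per library. Between the 2 pools of each population and generation the spread exceeded sampling noise in all 78 pairs of each sex (lowest chi-square over its degrees of freedom 7.32 in females and 11.1 in males). In 3 male libraries (long Replicate 1 at generation 8, short Replicate 2 at generations 0 and 2) the summed count of 6 ovary genes was 18714 to 97542, against at most 2079 in the other 153, and in 1 female library (control Replicate 2 at generation 2) the sum of 6 testis genes was 2852, against at most 164 in every other female library. The sex comparison was therefore also run without these 4 libraries, where 24 enzyme genes were called in place of 23. The 6 adult midgut marker genes (mex1, Myo31DF, Myo61F, nub, Npc1b and Vha100-4) had a summed count of 7225 to 23148 in males and 7692 to 15481 in females.

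The enzymes held a sizeable share of the transcripts of the body. Summed over the 39 genes they took a median of 1.24% of all counts in males, with 0.418% in the lowest library and 2.40% in the highest, and 0.105 to 1.21% in females, with a median of 0.510%. Per kilobase of exon, alphaTry, a trypsin that cuts protein after basic residues, had the highest mean normalized read count in both sexes, 78895 in males and 36324 in females. In males it was followed by Amy-p at 54435, betaTry at 53436, Mal-A1 at 38455, Jon65Aiv at 38449 and Jon65Aiii at 33948. In females the order per kilobase was betaTry at 26452, Jon65Aiv at 22340, Jon65Aiii at 17918, Jon25Biii at 15888 and Amy-p at 13306. The lowest of the 37 genes that passed the minimum were Jon66Ci, at 149 in males and 87.9 in females, and Jon66Cii, at 40.7 and 17.9.

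Neighbouring copies differed in level per kilobase by more than 10-fold in some clusters. In males the Jon65A genes stood at 38449 (Jon65Aiv), 33948 (Jon65Aiii), 1079 (Jon65Aii) and 1067 (Jon65Ai), and in females at 22340, 17918, 1641 and 978. Jon25Biii, at 15110 in males, lay above its neighbours Jon25Bi at 2467 and Jon25Bii at 1252. Jon99Ciii and Jon99Cii stood at 11511 and 10633 and Jon99Ci at 2842, while Jon99Fi and Jon99Fii were alike at 2595 and 2296. Of the Jonah proteases outside clusters, Jon74E stood at 22543 and Jon44E at 889 in males. The trypsins fell into an abundant pair, alphaTry and betaTry, and 6 lower genes, from epsilonTry at 3753 over lambdaTry at 1735, thetaTry at 1609, zetaTry at 932 and iotaTry at 673 to etaTry at 487.

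Among the maltases, Mal-A1 was followed per kilobase in males by Mal-A6 at 15724, Mal-A7 at 8629, Mal-A8 at 7815, Mal-A4 at 3999, Mal-A3 at 2230, Mal-A2 at 1980 and Mal-A5 at 1449. In females the same list read 7544 for Mal-A1, 3017, 1735, 1569, 901, 641, 467 and, for Mal-A5, 3464, so that Mal-A5 was the second of the 8 maltases in females and the last in males. Amy-d lay below Amy-p, at 17211 in males and 4077 in females, and Amyrel far below both, at 577 and 235. Of the lipases, mag stood at 3740 and 2130 and Lip3 at 623 and 229.

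Single libraries spread widely around these means. The normalized read count of alphaTry was 11424 in its lowest male library, 64518 at the median and 154025 in its highest, and 2323, 30776 and 82289 in females. That of Amy-p was 33804, 88769 and 184716 in males and 4477, 21481 and 61305 in females. The sexes overlapped for both genes, as they did for all 37, with 53 male libraries above every female library for alphaTry and 116 for Amy-p. Among the less abundant proteases, Jon25Bi went from 87.3 through a median of 1478 to 10587 in males, a 121-fold range, and Jon25Bii from 9.14 through 256 to 4402 in females, a 482-fold range. Mal-A5 lay at the other extreme, with 1991, 2983 and 5536 in males and 5120, 7295 and 8790 in females, a range of 2.78-fold and 1.72-fold. Over the 37 genes the median SD of log2 normalized count plus 10 was 0.72 in males and 0.81 in females, against 0.31 and 0.29 over all genes tested.

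GammaTry and deltaTry, known as near-identical copies, were scarcely counted. Only uniquely mapped reads were counted, and gammaTry reached a highest normalized read count of 2.23 in males and 2.32 in females with a median of 0, while deltaTry reached 18.7 and 15.2 with medians of 5.19 and 2.07. Neither passed the minimum of 50 in males or 100 in females, and how many of their reads were lost to shared sequence was not tested. The same reservation holds for alphaTry and betaTry, for Amy-p and Amy-d, and within the Jonah clusters.

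**Figure D1:**
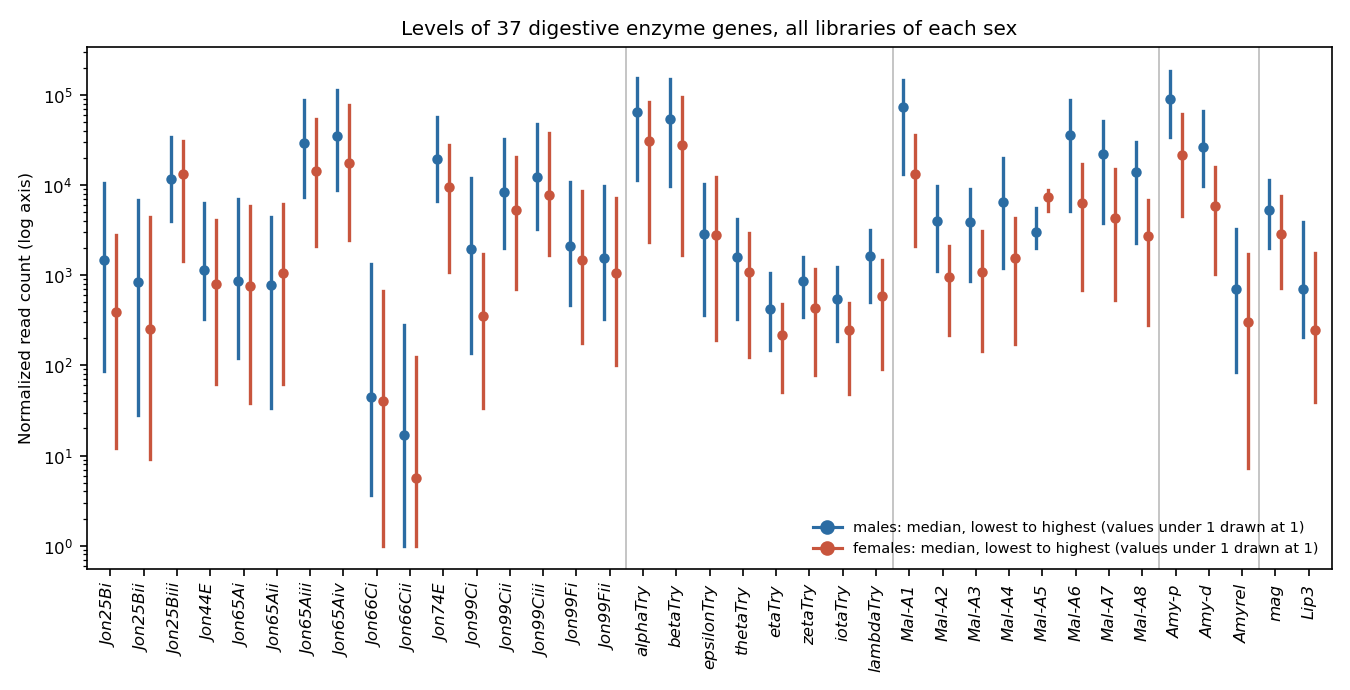
Normalized read counts of the 37 enzyme genes on a log axis, with the median (point) and the lowest to highest library (line) of all male and all female libraries, values under 1 drawn at 1 and vertical lines between families. Male medians lie above female medians for all but Jon25Biii, Jon65Aii and Mal-A5, and Mal-A5 has the shortest lines, 1991 to 5536 in males and 5120 to 8790 in females.

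Males and females of the same population and generation were then compared, over all libraries. The carbohydrate enzymes were far higher in males, the proteases less so, and 1 maltase went the other way. Of the 37 genes tested, 22 were called higher in males and 1 in females at an adjusted p under 0.001 and at least 2-fold (edgeR, quasi-likelihood test, adjusted over all genes by Benjamini-Hochberg). Over all 13896 genes tested, 76% were called, 52.9% higher in males and 23.1% higher in females. The median log2 difference of all genes, female minus male, was -1.27, and that of the 37 enzyme genes was -1.09. In whole bodies fewer gut cells and less enzyme RNA per gut cell cannot be told apart.

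The maltases had the widest gap. All 8 were called, 7 of them higher in males, with a median log2 difference of -2.25 over the family. Mal-A6 had a median normalized read count of 35816 in males, between 5144 and 87947, and of 6331 in females, between 685 and 17188. Its libraries overlapped between the sexes, but 132 male libraries lay above every female one. The log2 difference was -2.40 ± 0.06 (SE), 5.26-fold higher in males, with an adjusted p of 8.44e-103. Mal-A1, 72347 at the median in males and 13393 in females, was 5.17-fold higher in males, with a log2 difference of -2.37 ± 0.06. Mal-A7 and Mal-A8 followed with -2.33 ± 0.07 and -2.32 ± 0.06. Mal-A2, Mal-A3, Mal-A4 and Mal-A8 were higher in males in all 78 combinations of population and generation, and Mal-A1, Mal-A6 and Mal-A7 in 77 of 78.

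Mal-A5, which lies between Mal-A4 and Mal-A6 in the same cluster, was the only enzyme called higher in females. Its log2 difference was 1.27 ± 0.02, 2.40-fold, with an adjusted p of 6.19e-174, and females were higher in 78 of 78 combinations. Only 1 male library stood above the lowest female library, and it was 1 of the 3 with ovary RNA, whose Mal-A5 counts were 4225, 4312 and 5536. Without the 4 libraries that held RNA of the other sex, males spanned 1991 to 4631 and females 5120 to 8790, with no overlap.

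The amylases were also far higher in males, all 3 being called. Amy-d had a log2 difference of -2.09 ± 0.05, Amy-p of -2.06 ± 0.05, and both were higher in males in 78 of 78 combinations. Amyrel, an amylase-related gene of its own kind, was 2.73-fold higher in males, 697 against 302 at the median, with libraries of 84.5 to 3211 and 7.20 to 1724. Of the lipases, Lip3, a gene known to rise in starved larvae, was called, with a difference of -1.53 ± 0.07, and mag, an intestinal lipase, stayed short of 2-fold at -0.88 ± 0.05.

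The proteases were less uniform. Of the 16 Jonah proteases 5 were called, all higher in males, and the family median was -0.63. Jon99Ci was the exception in size, with a median of 1958 in males (137 to 11902) and 351 in females (33.8 to 1710). It was 5.13-fold higher in males, with a log2 difference of -2.36 ± 0.08, although its close neighbours Jon99Cii and Jon99Ciii stood at -0.62 ± 0.06 and -0.63 ± 0.06. Jon25Bi and Jon25Bii were called too, at -1.99 ± 0.12 and -1.61 ± 0.13, whereas Jon25Biii of the same cluster had a difference of 0.03 ± 0.05 with an adjusted p of 0.51. Jon65Aii leaned the other way, at 0.63 ± 0.08 with an adjusted p of 4.43e-13 but under 2-fold, and was higher in females in 58 of 78 combinations. Of the 8 trypsins tested 6 were called, all higher in males, with a family median of -1.07. LambdaTry was highest among them in fold, 2.63-fold, and epsilonTry had -0.06 ± 0.07 with an adjusted p of 0.38.

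The sex gap of the proteases depended on how libraries were scaled. With TMM factors in place of the authors' size factors the median of all genes moved by 0.42, to -0.86, and 16 of 37 enzyme genes were called, beside 10790 of 13896 genes. Jon66Cii, Jon74E, alphaTry, betaTry, etaTry, iotaTry, lambdaTry and zetaTry then fell short of 2-fold and Jon65Aii was called higher in females at 1.04. The values of epsilonTry and Jon65Ai changed sign, to 0.35 and 0.25. All 8 maltases, the 3 amylases and Lip3 kept their calls. Markers of eye and flight muscle were also lower in female libraries, with ninaE, the opsin of the outer photoreceptors, at -2.17 and Act88F, a flight muscle actin, at -2.89. The 6 ovary genes were higher, with a median of 8.54, and the 6 testis genes lower, with -11.5. Of the 6 midgut markers only mex1 and nub were called, at -1.92 and -1.33, both lower in females, beside 76% of all genes. The 6 midgut markers spanned -1.92 to 0.49, with a median of -0.66, against -1.27 over all genes. Their summed count was 14254 at the median in males and 10863 in females. The part of body composition in the sex gap was not tested.

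**Figure D2:**
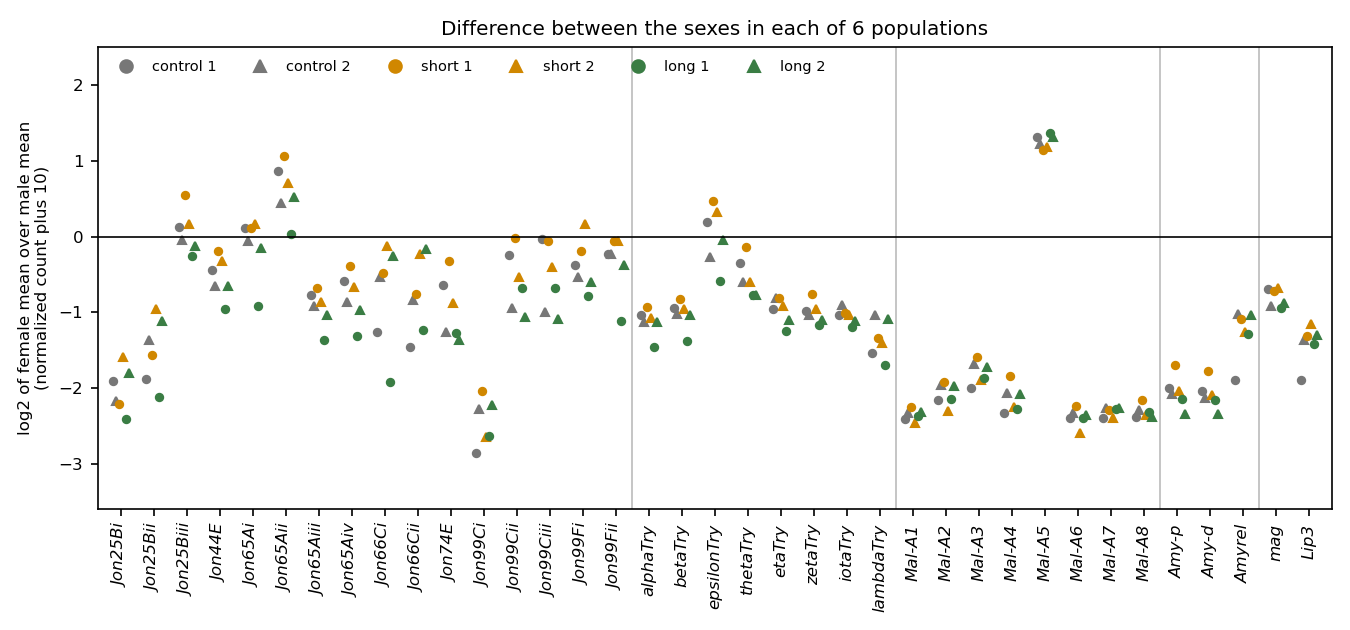
Log2 of the female mean over the male mean (normalized count plus 10) of each enzyme gene in each population, in grey for controls, orange for short sleepers and green for long sleepers, with circles for Replicate 1 and triangles for Replicate 2. Points of the maltases other than Mal-A5 and of the amylases lie below 0 in all 6 populations, and those of Mal-A5 lie above 0 in all 6.

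Levels also differed between generations. With generation as a factor, 35 of 37 enzyme genes were called in males and 32 of 37 in females (edgeR, adjusted p under 0.001), beside 86.3% of all genes tested in males and 92.4% in females. The share called was above that of all genes in males and below it in females. The fitted range of generation means had a median of 1.53 on the log2 scale over the enzyme genes in males and 1.52 in females, against 0.65 and 0.63 over all genes. The genes without a call were Jon44E and Jon65Aii in both sexes, and Jon66Ci, Jon66Cii and iotaTry in females. Generation cannot be told apart from rearing, food or extraction at that time. Males kept 24 and 19 calls without replicate 1 and without replicate 2 of every scheme, and females kept 21 and 8, Jon44E being gained without replicate 1. Over all genes these fits called 7208 and 9176 in males and 6755 and 6049 in females.

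In males the peak came in the middle of the experiment. Of the 37 genes, 11 had their highest mean at generation 4, 10 at generation 6 and 8 at generation 7, while 12 had their lowest at generation 12 and 8 each at generations 2 and 11. The summed count of all enzymes was 820420 at the median in generation 4, from 729464 to 1028690, and 292019 in generation 12, from 199079 to 725775, without overlap. Both generations were picked as the highest and the lowest of these medians. The midgut markers moved the same way, from a median sum of 17273 in generation 4 to 10349 in generation 12. The part of the amount of gut RNA in this course was not tested.

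Jon99Ci had the widest course in males in means of log2 count plus 10. In the fit the ranges of the sparse genes Jon66Ci and Jon66Cii, 3.27 and 3.21, were close to and above the 3.20 of Jon99Ci. The 12 libraries of Jon99Ci at generation 4 lay between 2126 and 8469, with a median of 5260, and those of generation 12 between 137 and 1510, with a median of 502. The generations did not overlap, and the mean was higher at generation 4 in 6 of 6 populations, by 3.32 on that scale. Here and for the genes below, the generations were picked as highest and lowest, which favours such agreement. Jon25Bi fell from a median of 4794 at generation 4 to 542 at generation 12, a difference of 3.01, with libraries of 1453 to 10078 and 87.3 to 3864. The generations overlapped for this gene. Jon25Bii stood 2.66 higher at generation 4 than at generation 0, Jon99Cii 2.03 higher at generation 4 than at generation 13, and Jon66Ci 2.00 higher at generation 10 than at generation 2, the last in 5 of 6 populations.

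In females Amyrel had the widest course in means of log2 count plus 10, while in the fit the range of Jon25Bii, 2.93, was above its 2.72. The count of Amyrel was 725 at the median in generation 8, between 430 and 1724, and 92.6 in generation 12, between 13.3 and 461, a difference of 2.88 in these means. The 2 generations overlapped only narrowly. Jon65Ai followed with 2.73, from a median of 1633 in generation 3 to 230 in generation 12, then Jon25Bii with 2.43 and Jon25Bi with 2.11 between generations 4 and 0, and Jon99Fii with 2.14 between generations 2 and 10. All 5 were higher in 6 of 6 populations in the higher generation. The generations were picked as highest and lowest from these same populations, so this agreement is partly built in.

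In female generation 3 some proteases and the carbohydrate enzymes stood at opposite ends of their courses. It held the highest mean of 8 proteases, namely Jon25Biii, Jon44E, Jon65Ai, Jon66Ci, Jon99Cii, Jon99Fi, epsilonTry and thetaTry, and the lowest mean of Amy-p, Lip3 and 7 maltases (all but Mal-A5). Of these proteases, Jon44E and Jon66Ci had no called generation course in females (edgeR, adjusted p 0.00121 and 0.287). The summed counts of the protease families were high in generation 3 but not highest. That of trypsins was 81724 at the median in generation 3, 90001 in generation 7 and 38861 in generation 13, and that of Jonah proteases was 96824 in generation 3, 104618 in generation 11 and 50458 in generation 12. The sum of maltases was lowest in generation 3, at 26217, and 52537 in generation 6, and that of amylases was 17397 and 44316. In males the median sum of the amylases was lowest at generation 2, at 61965, and highest at generation 6, at 198984. That of the maltases was low at both generation 2 and generation 12, at 79061 and 77048, and highest at generation 6, at 260287. Mal-A5 took little part in these swings, with a range of generation means of 0.35 in males and 0.36 in females.

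**Figure D3:**
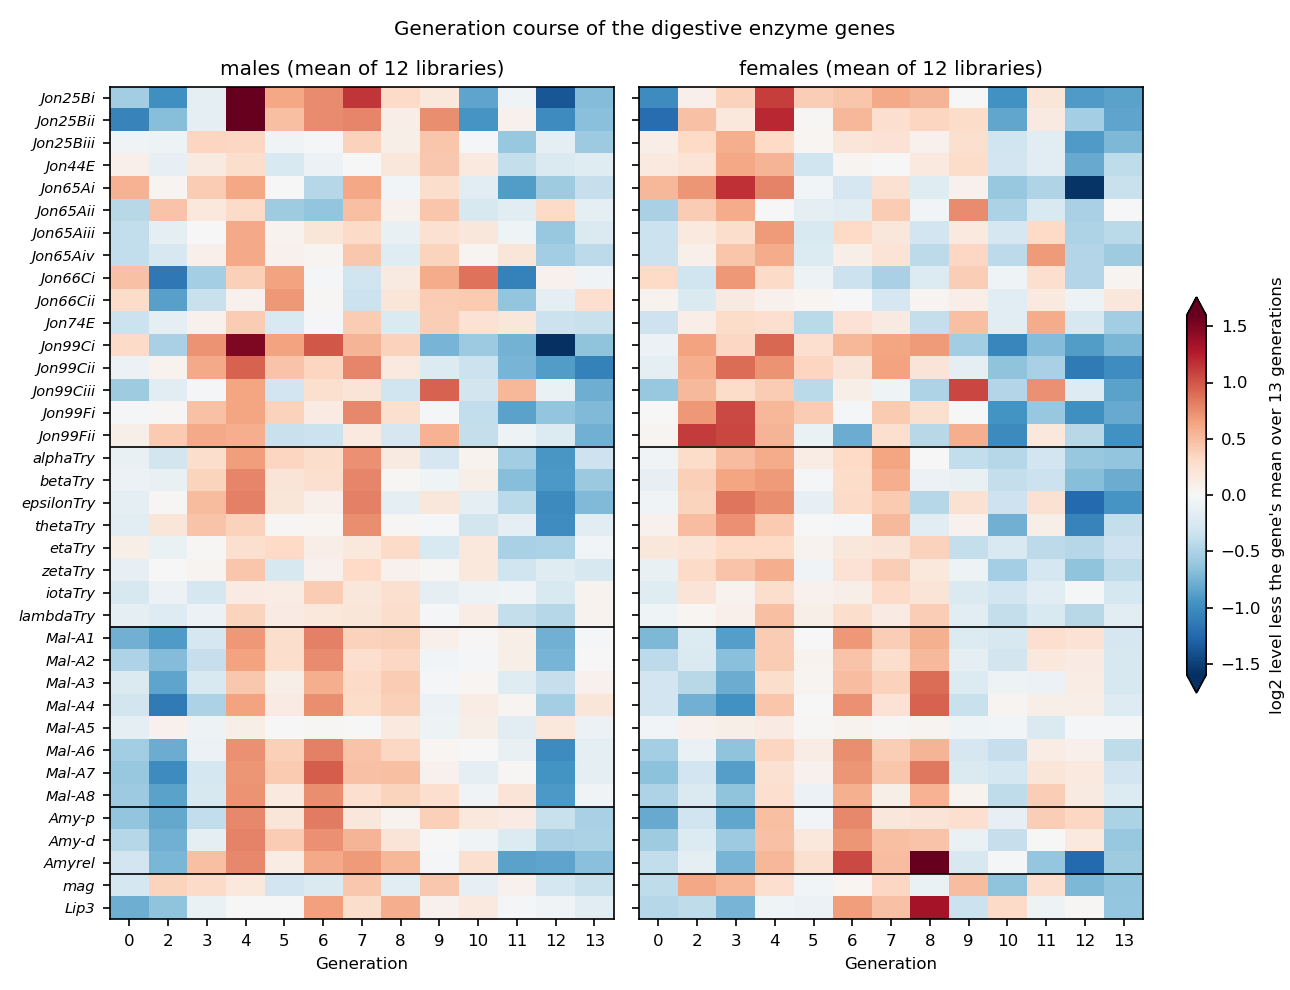
Heat map of the mean log2 normalized count plus 10 of each enzyme gene in each generation, less the mean of the gene, for males and females, over 12 libraries per generation, with generation on the horizontal axis and colours for log2 units. Male columns 4 to 7 are mostly above the gene means and column 12 is mostly below, and female column 3 is above for many proteases and below for the maltases and Amy-p.

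The study asked whether selection for sleep moved expression over generations. In each sex by itself, the fit held 1 slope on generation common to the 6 populations and 1 further slope for each selected population, and the 4 further slopes were tested together (edgeR). In males 5 of 37 enzyme genes were called, all Jonah proteases, beside 5.87% of the 13825 genes tested. They were Jon65Aii (adjusted p 1.40e-09), Jon99Fii (5.01e-08), Jon65Ai (5.35e-08), Jon44E (5.03e-05) and Jon25Biii (0.000745). In females 8 were called, beside 9.9% of 10107 genes, namely Jon99Fii (7.09e-05), Jon66Cii (8.52e-05), lambdaTry (9.45e-05), etaTry (0.000102), Jon25Biii (0.000199), Jon65Aii (0.000249), Jon65Ai (0.000451) and Jon44E (0.000736). Among these 8, Jon66Cii entered the female test only through its highest values, with a median count of 5.62 and a highest of 123. Of the 13 maltases, amylases and lipases 0 were called in either sex with edgeR or DESeq2, and 1 had an unadjusted p under 0.05 in males and 2 in females. Over all genes 3713 of 13825 in males and 6228 of 10107 in females had such a p with edgeR. Mal-A5 was gained in both sexes with generation as a factor, and in males without long Replicate 1. Differences between the sexes in these added slopes were called for 0 of 37 enzyme genes with edgeR, beside 7.77% of 10036 genes. An unadjusted p under 0.05 was found for 4 of the 37, beside 4594 of the 10036.

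The called proteases had slopes of opposite sign in the 2 long-sleeper populations. All 5 genes called in males had a slope above 0 in long Replicate 1 and below 0 in long Replicate 2, and so did all 8 called in females, among them the sparse Jon66Cii. Among all 37 genes, 27 slopes were above 0 in long Replicate 1 males and 31 in females, and 23 were below 0 in long Replicate 2 males and 33 in females. The slope of the controls was also below 0 for all 5 genes called in males and for 7 of the 8 called in females, so that long Replicate 2 had the sign of the controls for these genes and long Replicate 1 did not. In short Replicate 2 females all 8 called genes and 31 of 37 had slopes below 0. The difference between Replicate 1 and Replicate 2 of a scheme was not itself tested.

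Jon65Aii, a serine protease of the Jonah family, was the clearest case. In males of long Replicate 1 the 6 libraries of generations 0, 2 and 3 had normalized read counts of 107 to 1287 with a median of 517, and the 6 of generations 11 to 13 had 1118 to 4447 with a median of 2946. In long Replicate 2 the count went from 423 to 1094, median 692, down to 33.5 to 385, median 141, with no overlap. The change in mean log2 count plus 10 was 2.27 in the first and -2.13 in the second population. It was -0.52 and -0.80 in the controls and 0.48 and 0.23 in the short sleepers. The early libraries of short Replicate 2 males included those with ovary RNA. The fitted slopes were 0.24 ± 0.04 and -0.18 ± 0.04 log2 units per generation in long Replicates 1 and 2 and -0.07 ± 0.03 in the controls. In females the change was 1.30 in long Replicate 1 and -1.74 in long Replicate 2.

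Jon65Ai, its neighbour on 3L, followed the same course in males. Its median went from 601 to 2037 in long Replicate 1, with early libraries of 551 to 1835 and late ones of 1007 to 7031, and from 1045 to 202 in long Replicate 2, with 503 to 1579 and then 183 to 331. Early and late libraries overlapped in the first population and did not in the second. The controls fell as well, by 1.53 and 1.24, and their slope was -0.14 ± 0.03.

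Jon99Fii, on 3R, also rose in long Replicate 1 males, from a median of 1673 (1080 to 4356) to 6755 (1687 to 9817), and fell in long Replicate 2, from 2904 (2162 to 4118) to 909 (506 to 1768). Slopes were 0.17 ± 0.03 and -0.15 ± 0.03, and that of the controls was -0.12 ± 0.03. Control Replicate 2 went from 3833 (3132 to 6111) to 1044 (447 to 2010), a change of -1.78 beside -1.55 in long Replicate 2. In females the change was 0.93 in long Replicate 1, -2.28 in long Replicate 2 and -2.42 in control Replicate 2.

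The other called genes moved less or were sparse. Jon44E changed by 0.87 and -1.01 in males of long Replicates 1 and 2, and Jon25Biii by 0.48 and -0.73. Jon25Biii fell most in males of short Replicate 2, from a median of 10881 (6515 to 15345) to 4539 (3999 to 5050), without overlap. The early libraries of this population included those with ovary RNA, among them the lowest, at 6515. The trypsins lambdaTry and etaTry, both called in females alone, fell in short Replicate 2 from 555 to 308 and from 228 to 99.3 at the median, with slopes of -0.14 ± 0.03 and -0.15 ± 0.02. Jon66Cii went from 5.72 to 64.7 in females of short Replicate 1 and from 26.9 to 1.76 in short Replicate 2. Its counts were at most 123 in any female library, with a median of 5.62. It thus entered the female test only through its highest values, as the minimum of 100 had to be passed in a single library. Its female mean was highest in short Replicate 1, at 31.2, against 5.70 to 16.7 in the other populations.

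The direct contrast of short against long sleepers, the mean of the 2 short slopes less the mean of the 2 long ones, called 0 of 37 enzyme genes in either sex with edgeR, beside 1.84% of all genes in males and 0.989% in females. Before adjustment 9 male and 4 female enzyme genes had a p under 0.05, beside 2593 of 13825 and 1151 of 10107 genes. Limma on 6 population slopes called 0 enzyme genes and 0 of all genes in both sexes. It put 5 and 1 enzyme genes under 0.05 before adjustment, beside 1057 and 191 of all genes. With edgeR the lowest adjusted p of the enzyme genes was 0.028 in males (Jon74E) and 0.010 in females (Mal-A5). The median difference over the enzyme genes was -0.04 log2 units per generation in males and -0.02 in females.

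The calls depended on single populations. With the population number as a replicate block on the generation slope, 4 enzyme genes were called in males, Jon25Biii being lost, and 0 in females. Over all genes 500 of 13825 and 522 of 10107 were called. In females 9 of 37 enzyme genes had p under 0.05 before adjustment, beside 2423 of the 10107, and the lowest adjusted p of the 37 was 0.00165. With populations as the replicates, limma called 0 enzyme genes in both sexes. It also called 0 of all 13825 male and 0 of all 10107 female genes, so this count cannot set the enzymes apart from other genes. Before adjustment 5 male and 0 female enzyme genes were under 0.05, beside 790 and 173 over all genes. Without long Replicate 1 the count fell to 2 in males and 2 in females, without long Replicate 2 to 3 and 3, and in females to 4 without either short population. Over all genes 811 male and 1001 female calls became 1147 and 419 without long Replicate 1 and 576 and 347 without long Replicate 2. In females they became 518 and 492 without short Replicate 1 and 2. Without generation 0 the enzyme count was 3 in males and 2 in females, beside 439 and 621 over all genes. With generation as a factor it was 13 and 18, beside 1442 of 13825 and 4024 of 10107 genes.

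**Figure D4:**
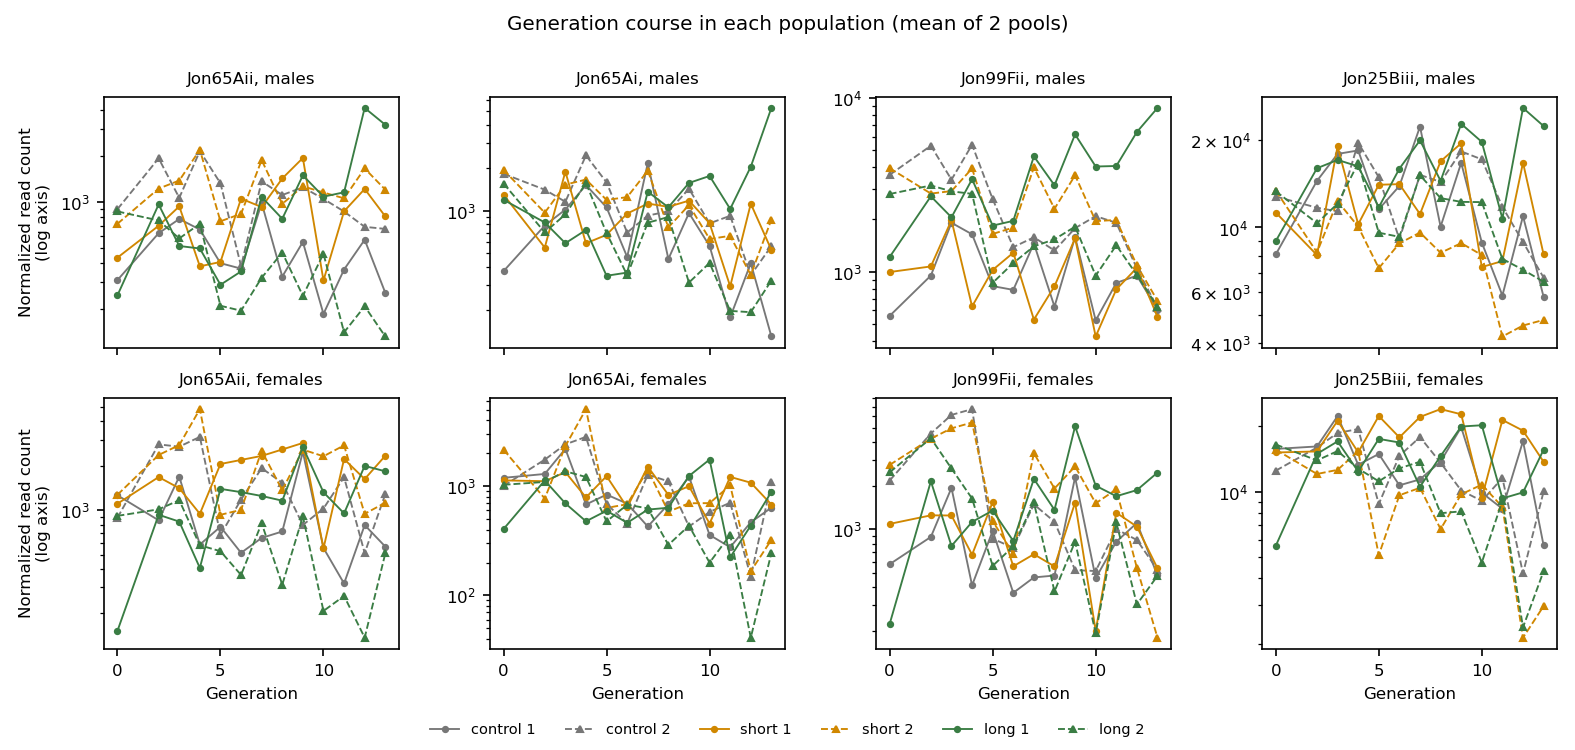
Normalized read count (log axis, mean of 2 pools) of Jon65Aii, Jon65Ai, Jon99Fii and Jon25Biii over generations in males and females, 1 line for each population, solid with circles for Replicate 1 and dashed with triangles for Replicate 2. In males the line of long Replicate 1 ends highest for all 4 genes, and that of long Replicate 2 ends lowest for Jon65Aii.

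Apart from slopes, some genes differed in mean level between populations. The share of the sum of squares of log2 count plus 10 that lay between populations had a median of 13.0% over enzyme genes in males and 10.9% in females, against 8.89% and 9.25% over all genes. It was highest for Lip3 in males, 43.0%, and for Jon99Ci in females, 44.9%. Lip3 had a median of 902 in control Replicate 1 males, 1022 in long Replicate 1 and 1272 in short Replicate 1, and of 480, 412 and 577 in Replicate 2 of the same schemes, so that all 3 Replicate 1 populations stood above all 3 of Replicate 2. Jon99Ci was the reverse, with male medians of 520, 1929 and 1018 in Replicate 1 of control, long and short and 3855, 2239 and 3533 in Replicate 2. In females the Jon99Ci medians were 112, 299 and 305 in Replicate 1 and 805, 553 and 513 in Replicate 2. Single libraries overlapped between populations for both genes.

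Generation accounted for a median of 34.7% of the sum of squares of the enzyme genes in males and 30.6% in females, population by generation for 31.1% and 40.7%, and the difference between pools for 15.7% and 15.3%. Over all genes these medians were 33.9% and 37.8%, 28.2% and 30.2%, and 21.4% and 16.3%.

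The enzymes varied together. Over the 78 combinations of population and generation, the median Pearson r of the 666 pairs of enzyme genes was 0.37 in both sexes, and 89.8% of pairs in males and 88.7% in females had r above 0, while the median over pairs of all genes was near 0 (0.0095 and -0.0016). These means share generations and populations. The differences between the 2 pools of a combination do not, and their median r was 0.35 in males and 0.38 in females, against 0.037 and 0.0051 over all genes. The first principal component of the 37 genes held 43.0% of their variance in males and 43.4% in females.

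The highest r of any pair was that of Mal-A1 with Mal-A6 in males, 0.96, and of Jon65Aiii with Jon65Aiv in females, 0.97. Co-variation was closest among the maltases, with a median r of 0.85 in males and 0.87 in females within the family, above the 0.54 and 0.78 of trypsins, the 0.55 and 0.73 of amylases, and the 0.44 and 0.53 of Jonah proteases. Maltases also went with amylases, at 0.69 and 0.73. Jonah proteases went with trypsins, at 0.40 and 0.59, and less with maltases, at 0.24 in males and 0.09 in females, where 38 of 128 pairs were below 0. Mal-A5 stood outside the maltase group, with a median r with the other enzymes of 0.02 in males and 0.10 in females. The lipases went with different partners. Mag was closest to thetaTry, at 0.68 and 0.83, and Lip3 to Amyrel in males, at 0.68, and to Mal-A3 in females, at 0.80.

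Pairs of related genes were tested, 9 in all with both genes above the minimum, which gave 36 relations over both sexes, with means and pool differences taken separately, of which 28 had an adjusted p under 0.001 (permutation test, 100000 resamples, Benjamini-Hochberg over the 36). AlphaTry and betaTry, which lie on either side of epsilonTry, had r 0.95 and rho 0.95 in males and 0.96 and 0.94 in females, and pool differences gave r 0.93 and 0.96. Amy-p and Amy-d had r 0.90 in males and 0.92 in females, with 0.96 and 0.98 for pool differences, and Mal-A6 and Mal-A7 had 0.93 and 0.94, with 0.91 and 0.93. For these 3 pairs r stayed at 0.88 or higher without the 2 most extreme combinations, and the adjusted p was 1.38e-05, which belongs to the smallest p these permutations can give. The means share generations and populations and are not independent, so their p-values, here and for the pairs below, may be too small. The count of 28 includes such means. Pool differences do not share generations and populations in this way, and for these 3 pairs their adjusted p was also 1.38e-05 in both sexes. Only uniquely mapped reads were counted, so reads matching both copies were dropped. Whether reads placed on the wrong copy moved such pairs together was not tested.

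Other related pairs ranged from closely tied to unrelated. Jon25Bi and Jon25Bii had r 0.90 in males and 0.85 in females, Jon66Ci and Jon66Cii 0.78 and 0.84, and Jon65Ai and Jon65Aii 0.69 in both. For the last pair pool differences gave 0.47 and 0.27, the second with an adjusted p of 0.018. Jon99Fi and Jon99Fii had r 0.25 (rho 0.19, adjusted p 0.031) in males and 0.55 (rho 0.44, 1.38e-05) in females, and pool differences gave 0.58 in both. Jon99Ci and Jon99Ciii had 0.40 (rho 0.40, adjusted p 0.000296) in males and 0.14 (rho 0.15, 0.24) in females, and pool differences gave 0.59 (adjusted p 1.38e-05) and 0.33 (0.00355). Mag and Lip3 had -0.27 (rho -0.28, adjusted p 0.020) in males and -0.04 (rho -0.12, 0.75) in females, and -0.06 and 0.22 for pool differences. With population and generation means taken out, r of mag and Lip3 was 0.06 in males and 0.17 in females. On that scale Jon99Fi and Jon99Fii had 0.65 and 0.76, and Jon99Ci and Jon99Ciii had 0.49 and 0.44.

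**Figure D5:**
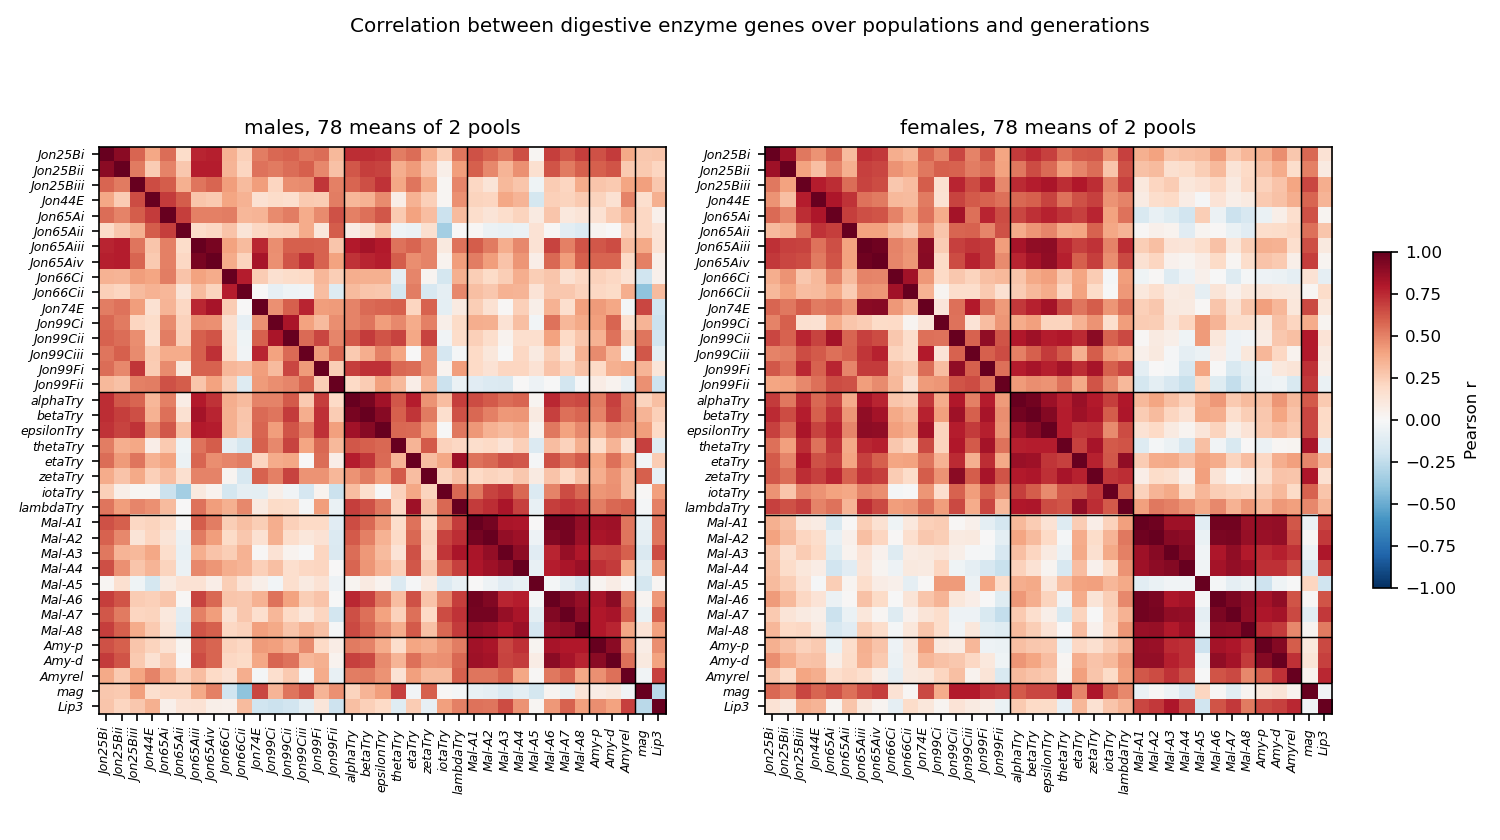
Pearson r between the enzyme genes over 78 means of 2 pools, males and females shown separately, genes ordered by family on both axes. The block of maltases without Mal-A5 and the amylases is high in both sexes, the protease block is wider and paler, and the rectangle of Jonah proteases against maltases is near 0 in females.

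Among genes outside the 39, those whose level followed the mean standardized level of the enzymes most closely were Phae2, a serine protease gene, at r 0.89, CG8952 at 0.89 and CG32633 at 0.88 in males, out of 13788 genes. In females they were CG8952 at 0.92, CG8773 at 0.92 and veil at 0.92, out of 10070. These values are over the 78 means.

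Other digestive enzymes, a list of 12 (yip7, Phae1, Phae2, Try29F, Ser8, kappaTry, Mal-B1, Mal-B2, tobi, Bace, Lip1 and Lip4), were compared between the sexes in the same fit. Of the 12, 10 were called higher in males, beside 52.9% of all genes, with a median log2 difference of -1.87, against -1.27 over all genes, and Lip1 had the largest, -3.14 ± 0.07. Bace, an aspartic protease, and yip7 stayed under 2-fold, at -0.54 and -0.90. The generation course was called for 11 of 12 in males and 10 of 11 in females, beside 86.3% and 92.4% of all genes. The slope difference from controls was called for 0 of 12 in males with edgeR, beside 5.87% of all genes. With DESeq2 it was called for 1, beside 985 of 13825 genes. Before adjustment 8 had a p under 0.05 with each, beside 3713 and 3818 genes. In females kappaTry and Lip4, 2 of 11, were called with edgeR (adjusted p 9.20e-05 and 0.000771), beside 9.9% of all genes. Lip4, 1 of 11 tested, was also called for a sex difference in added slopes (0.000235), beside 7.77% of all genes.

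Of 10 regulators known for digestive enzyme genes (GATAe, sug, Mondo, bigmax, Hr96, daw, babo, put, Smox and Med), 5 were called for sex, beside 76% of all genes. GATAe, a gut GATA factor, daw, which encodes Dawdle, and sug, which encodes Sugarbabe, were lower in females, at -1.48, -1.42 and -1.35. Hr96, a nuclear receptor of lipid metabolism, and Med, a Smad of the Activin pathway, were higher in females, at 1.52 and 1.55. For the slope difference from controls 0 of 10 were called in either sex with edgeR or DESeq2, beside 5.87% of all genes in males and 9.9% in females with edgeR. Before adjustment 2 male and 8 female regulators had a p under 0.05, beside 3713 of 13825 and 6228 of 10107 genes. The generation course was called for 9 in males and 10 in females, beside 86.3% and 92.4% of all genes. The median fitted range was 0.64 in both, close to the 0.65 and 0.63 of all genes and below the 1.53 and 1.52 of the enzymes.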

How the data were processed

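RNA-seq was made from whole bodies of male and female pools of 6 populations over 13 sampled generations. The authors demultiplexed reads with CASAVA 1.8.2, checked them with FastQC, aligned them with STAR to a FlyBase annotation of genome release 6 and counted uniquely mapped reads per gene with HTSeq, and they deposited these raw counts without normalization. The authors also deposited normalized read counts, a signal obtained with DESeq by dividing each library by 1 size factor, and raw over normalized values were constant within a library (largest coefficient of variation 1.4e-09, factors 0.74 to 2.47). They leave out 4266 of 17478 genes, so normalized counts were computed here for every gene from the raw counts and the same factors. Columns of other samples that were set aside numbered 0.

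Genes entered a test with a normalized count above 50 in a male or 100 in a female library. Raw counts were tested with edgeR 4.0.16 (quasi-likelihood, R 4.3.3) with the deposited factors as offsets, two-sided, and called at a Benjamini-Hochberg adjusted p under 0.001, for sex also at 2-fold. For the 2 fits over both sexes the dispersion trend was set on a subset of genes spread evenly over abundance. DESeq2 1.42.0, limma 3.58.1 on population slopes, TMM factors, total counts, no minimum, and fits without each population, generation 0, the 29 libraries with sample replicate label 3 or 4 or the 4 libraries with RNA of the other sex were alternatives. Correlations used log2 of the normalized count plus 10 (1 as an alternative), averaged or differenced over 2 pools, and principal components used the same means. The male slope fit with its short against long contrast, the male generation course and the sex difference were tested on simulated counts. The fits in females alone, the sex difference in added slopes, DESeq2 and limma were not. Coordinates and exon lengths were taken from the BDGP6.54 annotation, which is newer than the one the authors used but of the same assembly.

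Pool numbers did not pair libraries across the sexes (correlation of deviations over 0.1 in 18 of 78 combinations, median 0.007). Population numbers did pair the schemes by this check, made on the data and not given by the labels. Deviations of means over generations correlated over 0.1 in 3 of 3 pairs of schemes in both sexes. They spanned 0.26 to 0.52 in males and 0.21 to 0.48 in females. Those of generation slopes did so in 3 of 3 pairs in females (0.28 to 0.68) and in 2 of 3 in males (-0.03 to 0.23). The block on population number is therefore given beside the slope results.

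The genes named are those called for slope differences, the 6 highest per kilobase in each sex, the 5 with the largest called difference in each direction between the sexes (1 in the female direction), the 5 with the widest called generation course in each sex (means of log2 count plus 10), those under the minimum, and the 3 closest other genes in each sex. Further genes named in the families were chosen after their values were seen. Members, gene lists and tests were chosen with earlier results of these data known. Marker lists of ovary (osk, nos, bcd, vas, Vm26Ab, Cp36) and testis (Mst87F, Mst84Da, dj, can, aly, betaTub85D) served to find libraries with RNA of the other sex. Of the other fixed markers, the summed count of Yp1, Yp2 and Yp3 had a median of 1289 in males and 342023 in females, and that of roX1 and roX2 26317 and 35.8.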

Additional observations from a re-analysis of the deposited data

How the results depend on the processing

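Of the values of single genes and counts over all genes under the alternatives, 2371 kept their direction and side of the threshold, 164 fell short of it, 52 came to pass it, 36 counts moved by over 1.5 times and 0 changed sign past it. The replicate block on pool number left the slope counts at 5 in males and 8 in females and the generation course at 35 and 32, and gave 24 for sex. The replicate block on population number gave 4 slope calls in males and 0 in females, as above. For the slope difference from controls (5 male, 8 female enzyme genes), males gave 3 without generation 0, 3 without sample replicate labels 3 and 4, 13 with generation as a factor and 0 with populations as replicates, and females gave 2 without generation 0, 18 with generation as a factor and 0 with populations as replicates. Leaving out single populations or all populations of 1 number gave 0 to 6 in males and 0 to 9 in females. DESeq2 called 6 and 11. For short against long (0 and 0), these left-out fits gave 0 to 2 in males, Jon65Aii without long Replicate 1 and Jon65Ai and Jon99Fii without long Replicate 2, and 0 to 1 in females, Jon66Cii without short Replicate 1, and generation as a factor gave 1 (Mal-A5). The generation course ranged over 19 to 24 in males and 8 to 22 in females without replicate 1 or 2. The sex difference called 20 genes with total counts, 20 in controls only, 24 with no minimum, 22 and 24 without replicate 1 or 2, and 33 without the fold of 2. The added slopes gave 0 under every alternative, and the pair correlations 28 also with a pseudocount of 1.

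Over all genes the slope counts, 811 in males and 1001 in females, became 73 and 47 without replicate 1, 157 and 49 without replicate 2, 500 and 522 with the block on population number, 439 and 621 without generation 0, 1442 and 4024 with generation as a factor, and 0 and 0 with populations as replicates. Males gave 290 without labels 3 and 4, 537 without short Replicate 1 and 430 without short Replicate 2. Females gave 419, 347, 518 and 492 without long 1, long 2, short 1 and short 2, and 1633 without control 2. Short against long went from 255 in males and 100 in females to 29 and 12 without replicate 1, 59 and 9 without replicate 2, 107 and 43 without generation 0, and 0 with limma, in males to 77 without labels 3 and 4 and 161 without short Replicate 2, and in females to 256 with generation as a factor. The sex difference in added slopes went from 780 to 10 and 249 without replicate 1 or 2 and to 253 without the 4 libraries. The generation course went from 11934 to 7208 in males without replicate 1 and from 9342 to 6049 in females without replicate 2. The cause of these differences was not tested beyond the fewer libraries in a left-out fit. Depth limits Jon66Ci, Jon66Cii, gammaTry and deltaTry.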
